A study of Mus musculus with 5 samples.

Results

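The set described here holds ATRX ChIP-seq peaks of TBC1D3-expressing neurons that were also called in neurons 7 days in culture and in neither of the other libraries. Its 14560 members were chosen by overlap of the deposited peak lists: a TBC1D3 peak on chromosomes 1 to 19 belonged to the set when at least 1 bp of it lay in a peak of the DIV7 list and no base of it lay in a peak of the DIV14 control or MICAL1-M1 list. They made up 14560 of 195085 TBC1D3 peaks, a share of 7.46% (95% exact binomial interval 7.35 to 7.58). The series holds 651098 peaks in 4 lists. Since the rule used the peak calls of all 4 libraries, the number of members and the strength of their peaks describe the set and are no finding about it. Intervals cover counting error only, because each group was a single library.

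Primary neurons of C57BL6/J mouse embryos received lentivirus at day 5 in vitro, and their chromatin was immunoprecipitated with an ATRX antibody. The TBC1D3 library was made at day 14 in vitro (DIV14) from neurons given TBC1D3, a gene of humans and other hominoids that mice lack. The mCherry library at day 7 (DIV7, called young in the series design) carried the fluorescent protein of the control. The MICAL1-M1 library was made at DIV14 from neurons given a construct of that name, and the control library at DIV14 from neurons given mCherry. The sources used here name neither the promoter that drove the constructs nor the number of cultures behind a library. Every row of the MICAL1-M1 list bears a name with M2 in it, so the size, position and strength of the set were also computed without that list.

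ATRX is a chromatin remodeller of the SWI/SNF family. With the histone chaperone DAXX it deposits the histone variant H3.3 at telomeres, at the repeats around centromeres and at other repeated or silenced sequences, and it also binds G-rich sequence that can fold into G-quadruplexes. It is needed for the survival of cortical progenitors and for imprinted gene control in the mouse brain. A ChIP-seq peak is a stretch of genome where more sequenced fragments pile up than the caller's local background predicts, and the pileup given below is that number of fragments at the peak's summit.

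The peak lists rested on little depth, and on less in the libraries that define the set. The background over most of the genome was 1.22 fragments in TBC1D3 and 1.28 in DIV7, against 2.61 in MICAL1-M1 and 3.56 in the control. The lowest pileup of any listed peak was 3 fragments in TBC1D3 and 3 in DIV7, compared with 5 in MICAL1-M1 and 7 in the control. A site with 4 fragments could therefore be listed in the TBC1D3 and DIV7 lists and could not be listed in the control. The absence of a control or MICAL1-M1 peak means that no peak was listed there. Fragments at these sites in those libraries were not analysed here.

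Where members lay on gene starts, the bases under both peaks can be read. The RefSeq promoter table of GRCm38.p6 gives 300 bases for each start, from 250 before it to 50 after it, and 163 of its 31396 promoters on the chromosomes examined were overlapped by a member. The promoters below are the 4 named protein-coding genes whose members had the smallest p-values in both lists (by the larger of their p-values, in which Cpm and Ebf3 tied with Nek5 and Sox13 and came first by name), followed by the strongest such promoter of a list of developmental regulators, all with 50 or more bases under both peaks. Sequences run 5′ to 3′ on the gene's strand, and capitals mark the bases covered by both the TBC1D3 and the DIV7 peak. Polr1d, a subunit shared by RNA polymerases I and III, has its promoter on chr5:147077096-147077395 on the plus strand. That of Kcnk2, a background potassium channel, is chr1:189343658-189343957 on the minus strand. That of Cpm, a membrane carboxypeptidase, is chr10:117629250-117629549 on the plus strand. Ebf3, a transcription factor of neuronal differentiation, has chr7:137314396-137314695 and Nkx6-2, a homeobox factor of oligodendrocytes and ventral progenitors, chr7:139582748-139583047, both on the minus strand.
Polr1d: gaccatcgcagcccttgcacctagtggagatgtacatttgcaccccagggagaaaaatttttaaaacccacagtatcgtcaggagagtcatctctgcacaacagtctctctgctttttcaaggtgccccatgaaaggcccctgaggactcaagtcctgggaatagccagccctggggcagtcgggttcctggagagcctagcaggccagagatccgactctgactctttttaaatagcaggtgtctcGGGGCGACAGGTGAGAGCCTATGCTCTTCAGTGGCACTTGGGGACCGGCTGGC
Kcnk2: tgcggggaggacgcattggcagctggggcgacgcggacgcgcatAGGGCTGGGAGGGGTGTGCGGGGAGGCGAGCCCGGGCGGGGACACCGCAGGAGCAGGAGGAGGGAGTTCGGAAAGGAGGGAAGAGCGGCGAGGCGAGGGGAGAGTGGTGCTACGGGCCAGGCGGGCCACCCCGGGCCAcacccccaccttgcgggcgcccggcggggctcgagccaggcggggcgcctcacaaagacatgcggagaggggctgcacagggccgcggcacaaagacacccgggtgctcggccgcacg
Cpm: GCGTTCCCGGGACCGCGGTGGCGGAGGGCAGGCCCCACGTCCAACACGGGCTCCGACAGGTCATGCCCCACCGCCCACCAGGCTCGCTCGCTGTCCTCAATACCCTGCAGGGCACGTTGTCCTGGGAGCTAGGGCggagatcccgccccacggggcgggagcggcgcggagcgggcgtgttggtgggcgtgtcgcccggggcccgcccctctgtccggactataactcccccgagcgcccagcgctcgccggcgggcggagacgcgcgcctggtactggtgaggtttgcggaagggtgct
Ebf3: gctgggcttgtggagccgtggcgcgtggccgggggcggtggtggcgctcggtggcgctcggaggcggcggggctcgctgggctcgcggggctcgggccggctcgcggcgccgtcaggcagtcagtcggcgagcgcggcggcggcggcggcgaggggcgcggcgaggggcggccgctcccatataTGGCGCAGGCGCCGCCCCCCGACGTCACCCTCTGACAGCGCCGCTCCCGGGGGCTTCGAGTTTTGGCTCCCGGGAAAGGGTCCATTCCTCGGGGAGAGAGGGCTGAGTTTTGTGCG
Nkx6-2: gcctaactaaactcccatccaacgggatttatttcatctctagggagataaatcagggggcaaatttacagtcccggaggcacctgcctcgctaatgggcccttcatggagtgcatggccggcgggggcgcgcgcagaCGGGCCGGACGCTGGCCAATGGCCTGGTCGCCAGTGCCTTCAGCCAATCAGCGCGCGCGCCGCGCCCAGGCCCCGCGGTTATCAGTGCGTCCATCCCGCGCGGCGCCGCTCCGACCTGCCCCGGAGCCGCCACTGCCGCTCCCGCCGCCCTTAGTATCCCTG

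At Polr1d the TBC1D3 peak (chr5:147077231-147077772) had 7 fragments and a fold enrichment of 3.17, and the DIV7 peak had 6 fragments and 3.035-fold. The TBC1D3 summit lay 26 bp before the start of transcription and the DIV7 summit 124 bp after it. At Kcnk2 both peaks had 6 fragments (2.77-fold with TBC1D3 and 2.78-fold at DIV7), with the TBC1D3 summit 184 bp and the DIV7 summit 85 bp before the start. These were strong peaks for the set at a promoter, yet none of the 5 had a q of at most 0.05 in either list. At Cpm the pileup was 7 fragments with TBC1D3 and 5 at DIV7. At Ebf3 and at Nkx6-2 it was 5 in each library. The Nkx6-2 summits lay 543 bp apart, with the DIV7 summit 8 bp from the start of transcription and the TBC1D3 summit 551 bp past it. The sequences range from 7 CpG dinucleotides at Polr1d to 46 at Ebf3.

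The promoters of the set had fewer CpG dinucleotides than promoters shared with the other libraries. The median was 9 CpG per 300 bases and 56.7% G+C over the 163 member promoters. For TBC1D3 peaks shared with MICAL1-M1 only it was 20 CpG and 61.0% over 341 promoters, and for those shared with the control only 22 CpG and 62.7% over 336. Promoters under TBC1D3 peaks that no other list overlapped had a median of 5 CpG over 1234, and all promoters of the table had 7. A promoter with 10 or more CpG made up 47.9% of the member promoters (39.98 to 55.8), against 43.95% of all promoters and 82.1% of those shared with the control only (77.6 to 86.1). A run of GGG 4 times with 1 to 7 bases between, read on both strands, was present in 35 member promoters, or 21.5% (15.4 to 28.6), compared with 18.8% of all promoters and 30.4% of those shared with the control only. The letters TTAGGG of the telomere repeat, on both strands, were present in 12.3% of member promoters (7.66 to 18.3) and 10.6% of all. The GC box GGGCGG, on both strands, was in 45.4% (37.6 to 53.4) and 36.0%. GGG runs and GGGCGG can overlap each other. The member promoters were thus closer in composition to promoters at large than to those at which the control also had a peak. The rule bears on this composition, since it takes out peaks that the control or MICAL1-M1 overlaps.

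Most members were weak in both libraries. The TBC1D3 pileup was 3 fragments at the lowest, 4 at the median and 10990 at the highest, and the DIV7 pileup was 3, 4 and 8657 fragments in the same order. In 75.3% of the members (74.55 to 75.96) the pileup was 5 or less in both libraries. The median fold was 2.26 with TBC1D3 and 2.19 at DIV7. A q of 1 was listed for 97.1% of the members in TBC1D3 and 96.1% in DIV7, and a q of at most 0.05 for 108 members in TBC1D3 and 118 in DIV7. In 70 members the q was at most 0.05 in both lists, and in 14404 in neither. The set therefore held a large body of weak members and a small number of strong ones, which are described apart below.

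The share of TBC1D3 peaks that were members went up with the pileup. Among peaks of 3 fragments it was 6.49% (6.26 to 6.72), at 5 fragments 8.15% and at 7 to 9 fragments 8.99% (8.17 to 9.86). At 10 to 19 fragments it was 20.2% (15.2 to 26.0) and at 20 or more 54.4% (46.9 to 61.9), which was 98 of 180 peaks. Up to 9 fragments sharing with the other libraries went up as well, with MICAL1-M1 only to 6.62% at 7 to 9 fragments, against 5.28% at 3, and with the control only to 6.50%, against 2.79%. At higher pileups it did not. Of the same 180 peaks 1.67% (0.345 to 4.79) were shared with MICAL1-M1 only and 1.11% (0.135 to 3.96) with the control only. Of the 296 TBC1D3 peaks with a q of at most 0.05, 36.5% (31.0 to 42.25) were members, 9 were shared with MICAL1-M1 only, 7 with the control only and 95 with no other list. A further 29 were shared with DIV7 and MICAL1-M1, 8 with DIV7 and the control, 11 with the control and MICAL1-M1, and 29 with all 3 lists. The rule used these calls, so the counts describe the set.

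**Figure D1:**
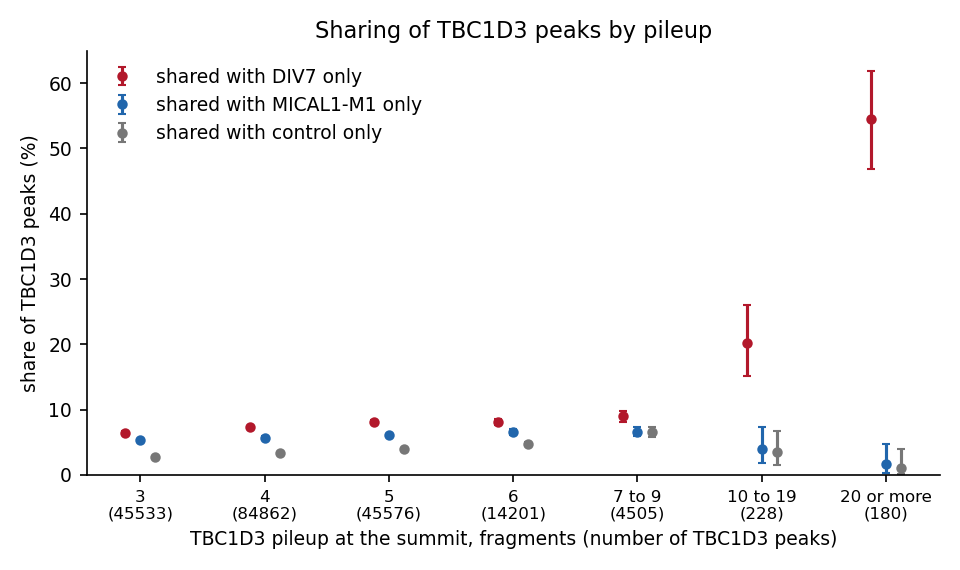
Share of TBC1D3 peaks (%, vertical axis) that were shared with DIV7 only (red), with MICAL1-M1 only (blue) or with the control only (grey), by the TBC1D3 pileup in fragments, with the number of peaks below each class and 95% exact binomial intervals. The red points stay between 6.49% and 8.99% up to 9 fragments and reach 54.4% at 20 or more, where the other points lie at 1.67% and 1.11%.

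Over the full lists the size of the set stood close to that of the other shared sets once the length of the lists was counted. There were 70.2 TBC1D3 peaks shared with DIV7 only per 1000 DIV7 peaks, compared with 80.7 shared with MICAL1-M1 only per 1000 peaks of that list and 71.3 shared with the control only per 1000 control peaks. TBC1D3 peaks that neither the control nor MICAL1-M1 overlapped were met by a DIV7 peak in 8.58% of cases (8.445 to 8.71). Those that the control or MICAL1-M1 did overlap were met by a DIV7 peak more often, in 14.7% (14.2 to 15.1). By number the set was the largest of those shared with a single other list, with 14560 peaks against 11292 for MICAL1-M1 and 6860 for the control. By rate it was not.

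The summits of the weak members seldom coincided. The median distance between the TBC1D3 and the DIV7 summit was 177 bp over the 14404 members with a q of at most 0.05 in neither list, and 29.99% of them had summits within 100 bp. TBC1D3 peaks shared with all 3 other lists were much the same, with a median of 191 bp and 30.1%. In the 70 strong members the median was 17 bp and 84.3% had summits within 100 bp. The q that divides these groups depends on the pileup, so it also set the range of pileups in each. Strong members ran from 12 to 10990 fragments in TBC1D3, while 75.3% of all members had 5 or less in both libraries. Spearman's rho between the TBC1D3 and DIV7 pileup was 0.0696 across the 14404 weak members and 0.931 across the 70 strong ones. It is a description across sites that share a local background within each library. With ranges so unlike, the values of rho cannot be compared between the groups. Over all members the TBC1D3 peak was 343 bp wide at the median, the DIV7 peak 360 bp and their overlap 209 bp.

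**Figure D2:**
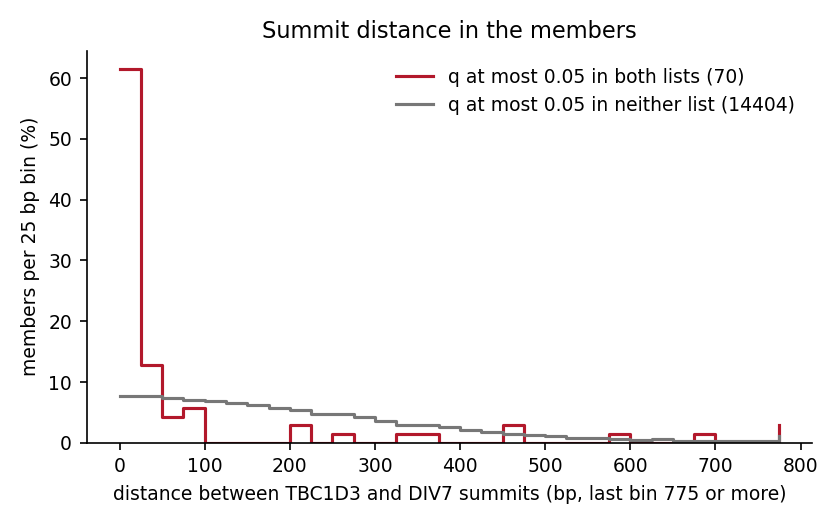
Distance in bp between the TBC1D3 and DIV7 summits of a member (horizontal axis) against the share of members per 25 bp bin (%), for 70 members with a q of at most 0.05 in both lists (red) and 14404 with such a q in neither (grey). The red line peaks in the first bin (median 17 bp), and the grey line declines slowly around its median of 177 bp.

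**Figure D3:**
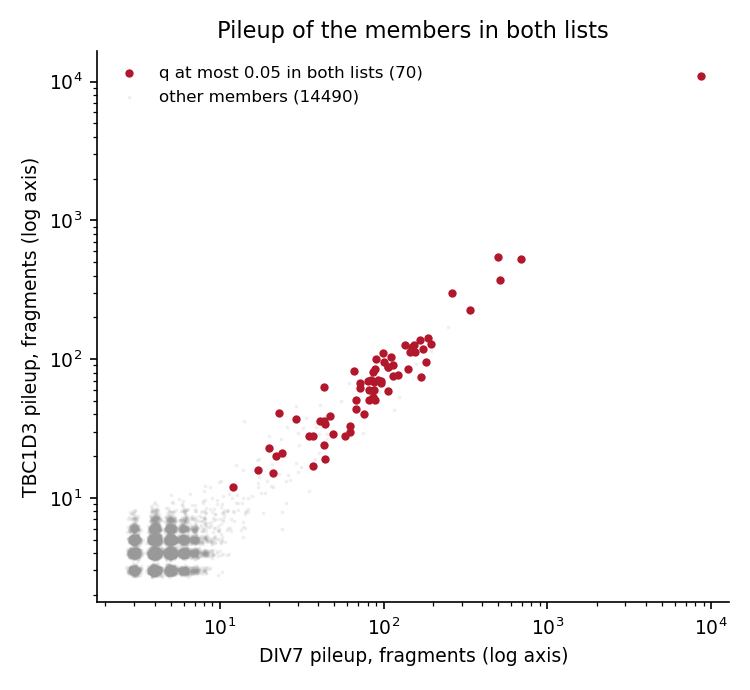
Pileup of each member in TBC1D3 (vertical) against DIV7 (horizontal), in fragments on log axes, with a little random scatter added to the grey points so that equal whole numbers do not hide each other. The 70 members with a q of at most 0.05 in both lists (red) run along a line up to 10990 fragments in TBC1D3 and 8657 in DIV7, and the remaining members (grey) crowd between 3 and 7 fragments.

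At the DIV7 edge of the rule members and near misses had the same median values. There were 264 members whose overlap with DIV7 was 10 bp or less, with a median pileup of 4 fragments and 2.26-fold enrichment. Just outside were 364 peaks with a DIV7 peak within 10 bp and no overlap, at the same median values. A further 38 members had a control or MICAL1-M1 peak within 10 bp, with a median pileup of 5 fragments and 2.315-fold enrichment. For 45 peaks, at 4 fragments and 2.255-fold, an overlap of 10 bp or less with such a peak kept them out. The nearest control or MICAL1-M1 peak was 3748 bp away at the median, and within 1000 bp for 20.55% of the members.

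The 70 strong members lay where both libraries had a raised local background. Their pileup was 12 fragments at the lowest, 69 at the median and 10990 at the highest with TBC1D3, and 12, 87.5 and 8657 at DIV7. The caller's local background at these sites had a median of 16.2 fragments with TBC1D3 and 32.9 at DIV7, and in 68 of the 70 the TBC1D3 background exceeded 1.5 times the genome value, compared with 6.48% of all members. The part of this background in the calls was not tested. DIV7 had the higher pileup in 59 of the 70 and the higher background in 61, while TBC1D3 had the higher fold in 59. The nearest control peak was 25430 bp away at the median and the nearest MICAL1-M1 peak 14980 bp. Of the 70, 39 had no peak of either list within 10 kb, compared with 23.1% of all members.

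The largest member was a 328 bp peak at chr9:35305257-35305584, in the long noncoding RNA gene Gm33838, with 10990 fragments against a background of 2272 in TBC1D3 (4.835-fold) and 8657 against 2229 in DIV7 (3.88-fold). Its summits coincided to the base pair, and the nearest MICAL1-M1 peak was 16694 bp away. A peak at chr9:3008422-3008768, in no annotated gene, followed with 544 fragments in TBC1D3 and 502 in DIV7. The third was inside Mdga2, which encodes a membrane protein that restrains neuroligin binding at synapses. That peak (chr12:67059266-67059786, 163108 bp from an end of the gene) had 526 fragments in TBC1D3 (3.09-fold) and 688 in DIV7 (2.87-fold). The fourth, 21369 bp from Ly6c2, was 1551 bp wide with 370 fragments in TBC1D3 and 514 in DIV7. In these 4 members the summits of both libraries lay at most 33 bp apart, and DIV7 had more fragments in 2 of them.

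Of the other strong members, several lay inside genes. Cdk8, the kinase of the Mediator complex, held a peak with 87 fragments in TBC1D3 and 107 in DIV7. Tmem267 had 225 fragments in TBC1D3 and 336 in DIV7, with its summits 1 bp apart. Aida, an axin interactor studied in dorsal patterning of zebrafish, had 119 in TBC1D3 and 175 in DIV7. All of these had more fragments at DIV7. Filip1l had 100 fragments in TBC1D3 and 90 in DIV7, and the nearest control peak lay 723 bp away. Lars2, the mitochondrial leucyl-tRNA synthetase, was the single gene among the 25 strongest members with a summit within 1 kb of its end, with 81 fragments in TBC1D3 (5.93-fold) and 86 in DIV7 (2.998-fold). Further down the ranking, and named after their values were seen, Jarid2, a partner of the Polycomb repressive complex, held 70 fragments in TBC1D3 and 80 in DIV7. Gphn, the scaffold of inhibitory synapses, held 37 in TBC1D3 and 29 in DIV7. Ppp1r9a, the neurabin of dendritic spines, held 63 fragments in TBC1D3 and 43 in DIV7. Between genes, a peak 8349 bp from Rimbp3 had 60 fragments in TBC1D3 and 81 in DIV7, and a peak 61116 bp from Axin2, a Wnt feedback inhibitor, had 127 in TBC1D3 and 136 in DIV7.

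Strong members were spread over 17 chromosomes, and some of them lay in clusters. In all, 44 of the 70 overlapped no annotated gene, 18 overlapped a protein-coding gene, 5 a long noncoding RNA gene and 5 a pseudogene, some more than 1 of these. The summit lay inside a protein-coding gene for 25.71% of the strong members (16.01 to 37.56). The 36.9% of all members lies in that interval. With all annotated genes counted, 47.1% of all members had the summit inside a gene, and 26 of the 70 strong members overlapped one. These counts thus do not set the strong members clearly apart from the whole set. Within 5 Mb of the first base of their chromosome lay 22 of the 70 strong members, or 31.4% (20.85 to 43.6), against 1.68% of all members and 1.41% of all TBC1D3 peaks. Among all TBC1D3 peaks with a q of at most 0.05 the share was 23.65% (18.92 to 28.91), whose interval overlaps that of the strong members. Mouse chromosomes have their centromere at that end. There were 9 clusters of 2 or more strong members within 100 kb of each other, which held 30 of the 70. The largest, with 7 members at chr11:3101082-3200086, spanned part of Sfi1, a gene of the centrosome, and ran between 17 and 76 fragments in TBC1D3 and 37 and 114 in DIV7. A cluster of 6 lay at chr2:181917359-182013184 (51 to 141 fragments in TBC1D3 and 81 to 188 in DIV7) and one of 4 at chr10:3109575-3115285. In every one of the 9 clusters the highest DIV7 pileup exceeded the highest TBC1D3 pileup except at chr9:3008422-3026793, where 544 fragments in TBC1D3 stood against 502 in DIV7. Outside the chromosomes of the rule, TBC1D3 peaks shared with DIV7 only were 26 of 108 on the Y chromosome (24.1%, 16.4 to 33.3) and 85 of 303 on scaffolds and other sequences (28.1%, 23.1 to 33.5), and 47 of these 85 had a q of at most 0.05 in both lists. On the X chromosome they were 5.33%.

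Few members lay at gene ends. A coding gene began or ended within 1 kb of the summit in 3.25% of members (2.97 to 3.55), against 6.26% (5.82 to 6.72) for TBC1D3 peaks shared with MICAL1-M1 only and 10.5% (9.74 to 11.2) for those shared with the control only. Peaks shared with the control and MICAL1-M1 but not DIV7 reached 29.6%, and those shared with all 3 lists 45.8% (42.85 to 48.75). Peaks that no other list overlapped had 2.67% (2.59 to 2.75), and all TBC1D3 peaks 4.08% (3.99 to 4.16), so the members stood between these. The rule bears on this share, since it takes out peaks that the control or MICAL1-M1 overlaps, and these are frequent at gene ends. Without that exclusion the share was 7.40% for TBC1D3 peaks overlapping DIV7, 13.9% for those overlapping MICAL1-M1 and 19.6% for those overlapping the control. The order of the 3 libraries was the same either way. The lowest listed pileup ran in this order too, at 3 fragments in DIV7, 5 in MICAL1-M1 and 7 in the control. Its part in the gene-end shares was not tested.

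The sets shared with 1 other list kept this order inside genes. A summit lay inside a protein-coding gene for 36.9% of members (36.1 to 37.7), against 49.2% of peaks shared with MICAL1-M1 only, 53.2% of those shared with the control only and 38.9% of those with no other list. More than 100 kb from any coding gene lay 30.9% of the members (30.1 to 31.6), compared with 23.2%, 19.7% and 28.4% for the same 3 sets. Genes of 500 kb or longer held 8.27% of the members (7.83 to 8.73) and 8.01% of all TBC1D3 peaks. Over chromosomes 1 to 19 the share of TBC1D3 peaks that were members ran only from 6.80% on chromosome 6 to 8.03% on chromosome 15. Bins of 1 Mb held a median of 6 members and a 95th percentile of 12, with 45 of 2413 bins holding none and 330 holding 10 or more.

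**Figure D4:**
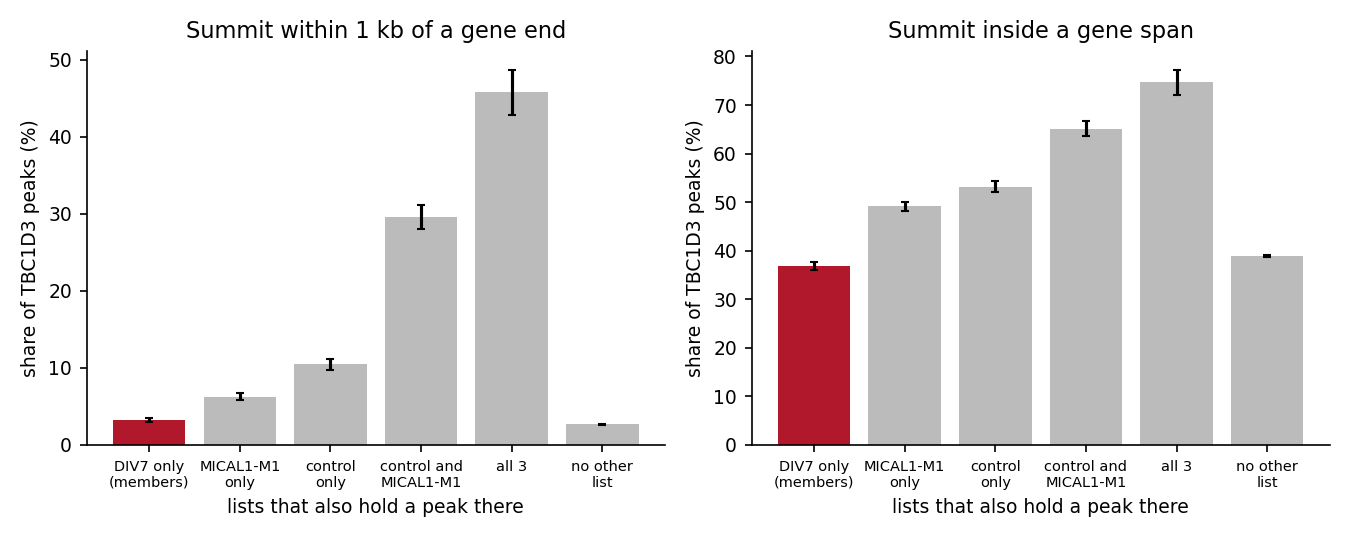
Share of TBC1D3 peaks (%, vertical axes starting at 0) with the summit within 1 kb of a protein-coding gene end (left) or inside a protein-coding gene (right), by which other lists held a peak there, with 95% exact binomial intervals. The members (red) stand at 3.25% and 36.9%, near the peaks of no other list (2.67% and 38.9%) and below the sets shared with MICAL1-M1 or the control.

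The genes with the highest numbers of members were long ones, which also held many TBC1D3 peaks. A member summit lay inside 3039 of 20665 protein-coding genes, or 14.7%, a share that climbed from 2.45% of genes under 10 kb to 93.6% of genes of 300 kb or longer. Genes of chromosome 18 were left out of the ranking by number. Outside it the cell adhesion genes Cdh13 and Cntn5 and the deacetylase gene Macrod2 led with 15 members each. The members of these genes were 9.38%, 11.03% and 10.87% of their 160, 136 and 138 TBC1D3 peaks. Nkain2 held 14, Dpp10, an auxiliary subunit of Kv4 potassium channels, 13, and its relative Dpp6 12 of 85. Adgrl3, a latrophilin receptor of synaptic adhesion, held 12 of 84 (14.3%), and Grip1, a scaffold that binds AMPA receptors, 12 of 75. Fhit held 12 of 161 (7.45%), next to the 7.48% at the median of genes of 500 kb or longer.

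Per length the leading genes outside chromosome 18 were shorter. The ranking took genes of 100 kb or longer with 5 or more members, with chromosome 18 left out. Dclk2, a doublecortin-like kinase of growing neurites, led it with 37.1 members per Mb, from 5 members in 134.8 kb. Frem2, an extracellular matrix gene, had 34.6 and Daam1, a formin of planar cell polarity signalling, 31.0, again from 5 members each. Counts of 5 leave these ranks uncertain. The neurotrophin receptor gene Ntrk3 had 9 members, or 22.4 per Mb. Over the chromosomes the mean was 5.92 members per Mb.

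The clustered protocadherin genes on chromosome 18, cell surface genes that single neurons express in differing combinations, held many members and were picked out after their values were seen. Of 165 TBC1D3 peaks over these clusters 54 were members (32.7%, 25.6 to 40.45), and the 1 Mb bin that holds most of them had 45 members, more than any other bin. None of the 54 had a q of at most 0.05 in both lists, and the highest pileup was 9 fragments. The next bin by number, on chromosome 11 from 3 to 4 Mb, had 20 members, 7 of them strong, and includes Sfi1. A bin on chromosome 13 from 43 to 44 Mb also had 20 members, none of them strong, with 102 MICAL1-M1 peaks and 104 control peaks. A bin on chromosome 16 from 3 to 4 Mb had 18 members among 60 TBC1D3 peaks, with 86 DIV7 peaks there but 8 of MICAL1-M1 and 4 of the control. A bin on chromosome 4 from 147 to 148 Mb, a cluster of zinc finger genes, had 18 members among 204 TBC1D3 peaks (8.82%), with 122 DIV7 peaks, 19 of MICAL1-M1 and 6 of the control. Other bins with as many members had many peaks of every list, such as chromosome 10 from 119 to 120 Mb with 19 members, 79 MICAL1-M1 peaks and 57 control peaks.

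At gene ends, a member summit lay within 1 kb of an end in 495 of 20665 protein-coding genes, or 2.4%. Developmental transcription factors and Wnt genes were the highest of 24 gene lists, with 13 of 119 genes (10.9%, 5.95 to 17.96). Of the 65 genes of this list with any TBC1D3 summit at an end, 13 had a member there, against 6.90% of the 7179 such genes in all. For TBC1D3 peaks shared with MICAL1-M1 only the list had 7 genes (5.88%, against 3.68% of all genes), and for those shared with the control only 6 (5.04%, against 3.81%). All of these members were weak, and earlier results of the same libraries already placed this list high in the TBC1D3 and the DIV7 library, so it is no independent evidence.

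Among the developmental genes, 4 encode forkhead factors. At Foxb2 the peak had 5 fragments in TBC1D3 (2.70-fold) and 7 in DIV7 (2.765-fold). At Foxf2 it had 7 fragments in TBC1D3 and 5 in DIV7. At Foxa2, a factor of floor plate and endoderm, it had 4 in TBC1D3 and 7 in DIV7, and at Foxe3, a lens factor, 6 in TBC1D3 and 3 in DIV7. The SOX genes Sox9, Sox10 and Sox17 had 5, 3 and 5 fragments in TBC1D3 and 6, 5 and 7 in DIV7. Sox9 marks astrocytes and Sox10 oligodendrocytes. Among the homeobox genes were En1, a midbrain and hindbrain factor with 6 fragments in each library, Nkx3-2, Nkx6-2 and Msx2. Eomes, the T-box factor of intermediate progenitors of the cortex, had 4 fragments in TBC1D3 and 5 in DIV7, with summits 238 bp apart. None of the 13 had more than 7 fragments in either library, which leaves each single gene uncertain. The nearest control peak was 1002 bp away at Foxb2 and 73092 bp away at Foxa2.

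Imprinted genes had 4 of 45 (8.89%, 2.475 to 21.2). The Dlk1 peak (chr12:109463166-109463648) was the highest of them, with 7 fragments in TBC1D3 (3.61-fold) and 6 in DIV7 (3.065-fold). Dlk1 encodes a paternally expressed Notch ligand relative, and ATRX is known to act at imprinted loci in mouse brain. Kcnk9, a potassium channel gene, had 5 fragments in TBC1D3 and 4 in DIV7. Peg10 and Sgce share a single peak, its summit within 1 kb of an end of each gene, with 4 fragments in each library. These 4 genes thus rest on 3 peaks.

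The synaptic and neuronal lists named next had only 1 or 2 genes each with a member at an end. Presynaptic release genes had 1 of 59 (Cplx3, a complexin of ribbon synapses) and postsynaptic glutamate genes 1 of 56 (Dlgap3, a scaffold of the postsynaptic density). Inhibitory synapse genes had 1 of 30 (Gabrg3, a GABA-A receptor subunit) and voltage-gated channel genes 1 of 67. Neuronal adhesion genes had 2 of 69 (Cdh13 and Nlgn1), axon guidance genes 2 of 52 (Sema7a and Sema3e), and neuronal Notch genes 1 of 22 (Dlk1). These shares, from 1.49% to 4.55%, have wide intervals that take in the 2.4% of all genes. With counts of 1 or 2 neither likeness to genes at large nor a difference can be read from them. Among genes with any TBC1D3 summit at an end, the shares with a member ran from 2.56% to 9.09%, against 6.90% of such genes in all. In gene spans, 47 of 69 adhesion genes and 30 of 56 postsynaptic genes held a member. The genes of these 2 lists are long, and per length they held 5.46 and 6.69 members per Mb, against 6.03 over all coding genes.

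Several lists had no member at a gene end. Immediate early genes had 0 of 42, Hox clusters 0 of 39, clustered histones 0 of 67, and MICAL, RAB and actin regulators 0 of 33. Ribosomal protein genes had 0 of 95, whose interval reaches 3.81%, and oxidative phosphorylation genes 0 of 83. The intervals of these lists include the 2.4% of all genes. Each list had TBC1D3 summits at other ends, such as 36 ribosomal protein genes and 21 immediate early genes, and none of these were members. Olfactory and vomeronasal receptor genes had 6 of 1456 (0.412%, 0.151 to 0.895), below the share of all genes, and Zfp zinc finger genes 7 of 388 (1.80%). TBC1D3 peaks shared with MICAL1-M1 only also lay at 0.412% of the receptor genes, and those shared with the control only at none. Any TBC1D3 summit lay at an end of 155 receptor genes. Of these 3.87% had a member there, against 6.90% of such genes in all. Heterochromatin genes and ATRX partners had 2 of 60, of which the stronger was the cohesin gene Smc3 with 5 fragments in TBC1D3 and 6 in DIV7.

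Markers of other cell types that such cultures can hold were counted in the same way. Microglia markers had 2 of 19 (Siglech and Tmem119; 10.5%, 1.301 to 33.14), and astrocyte (Sox9), oligodendrocyte (Sox10), progenitor (Eomes) and fibroblast and endothelial markers (Lum) 1 each of 19 or 20. Neuron markers had 0 of 14. Peak lists carry no expression, so the makeup of the cultures was not tested. Of 919 microRNA hairpins on the chromosomes examined, 2 were overlapped by a member (0.218%), those of Mir701 and Mir7229, both on chromosome 5. Any TBC1D3 peak overlapped 47 of the 919, and members made up 7.46% of all TBC1D3 peaks.

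**Figure D5:**
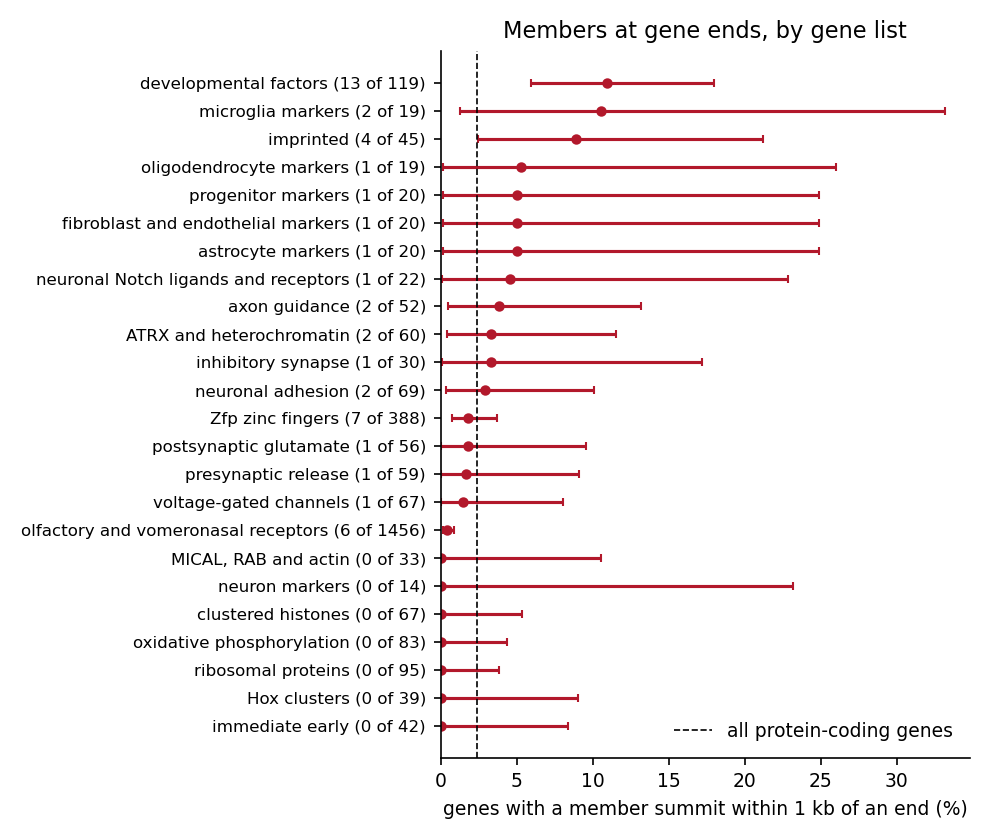
Share of the genes of each list with a member summit within 1 kb of a gene end (%, horizontal axis), with 95% exact binomial intervals, counts beside the list names and the share of all protein-coding genes as a dashed line. Developmental factors stand highest at 10.9% (13 of 119), above the 2.4% of all genes, and olfactory and vomeronasal receptors lie below it at 0.412%.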

How the data were processed

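ATRX ChIP-seq peak lists of 4 libraries were used, and the input DNA was not analysed here. The submitters' processing notes name MACS 1.4.2, Bowtie 1.3.0, ChIPseeker 1.26.2 and SAMtools 1.9, without settings. No genome build is stated, and positions were read as GRCm38 from the scaffold names. MACS 1.4.2 does not write the deposited layout, so the caller is uncertain. The deposited columns are the authors' score, a fold (a ratio of pileup to local background), -log10 values of p and of q, and the summit offset. All listed peaks have an uncorrected p below 0.05.

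Whole pileups and local backgrounds were recovered from fold and p, which follow a Poisson tail within 0.001 in log10 p for at least 99.991% of peaks. Folds were taken as listed. At members the folds of TBC1D3 and DIV7 were set side by side, without scaling between libraries and without a test. Overlap needed 1 bp. Gene ends (1 kb on either side of both ends of a coding gene), spans and promoters came from RefSeq for GRCm38.p6, which gives no exons for these genes. Shares carry exact binomial 95% intervals, and no test between conditions was possible with 1 library each. Read totals were not analysed here.

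The members and gene lists were chosen with earlier results of these data known. Names were drawn from the 25 members with the smallest p in both lists, the 10 genes with most members and the 10 with most per Mb (ties kept), up to 4 genes per list (more of the developmental list) and the 10 bins with most members. Jarid2, Gphn and Ppp1r9a, from further down the ranking, were added after their values were seen. Other strong members inside genes there, such as those in Dock2 and Ttc21b, were left undescribed. Members on chromosome 18 were counted and not singled out, apart from the protocadherin clusters, added after their values were seen. Some genes that this rule names are not reported here. The overlap and pileup steps were tested on simulated data. Python 3.11.15, numpy 2.4.6, pandas 2.3.3 and scipy 1.17.1 were used.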

Additional observations from a re-analysis of the deposited data

How the results depend on the processing

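The set's size follows its definition, and its position in the genome does so less. Requiring DIV7 to cover 50% of the TBC1D3 peak left 7970 members (4.09% of TBC1D3 peaks), of which 0.803% had a q of at most 0.05 in both lists. A DIV7 summit within 200 bp left 8308 (4.26%), with 0.734% strong. With no control or MICAL1-M1 peak within 1000 bp the share was 5.93%, with 2.8% at gene ends and 34.6% inside genes. Lists limited to p of at most 0.01 gave 4278 members (3.28%), with 4.46% at gene ends and 1.66% strong. Lists limited to q of at most 0.05 gave 75 members (25.3% of 296 peaks), with 2.67% at gene ends, 25.3% inside genes and, by construction, 100% strong. Lists of equal length gave 3886 members (4.1%), with 4.14% at gene ends and 1.83% strong. DIV7 peaks counted in place of TBC1D3 peaks gave 7.05% of that list. With 3 kb at gene ends the share was 7.4%, and with all annotated genes 7.34% at gene ends and 47.1% inside genes. Of the alternatives chosen after seeing the data, leaving the MICAL1-M1 list out of the rule gave 8.24%, with 3.97% at gene ends and 38.1% inside genes. Leaving out TBC1D3 peaks with a background over 1.5 times the genome value gave 0.0147% strong (2 of 13616). Where no value shows otherwise, the cause of a change was not tested.

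In lists of p of at most 0.01 and of equal length the gene-end share stayed lower for members (4.46% and 4.14%) than for peaks shared with MICAL1-M1 only (9.81% and 8.74%) or with the control only (13.6% and 11.4%). With 3 kb it was 7.4% for members and 7.36% for peaks of no other list. The developmental list had 5 of 119 genes at p of at most 0.01, against 0.968% of all genes, 4 at equal length (3.36%, against 0.827%), and none at q of at most 0.05. No paired analysis was possible because each group has 1 library and no result comes from a test. Pileups of 3 to 5 fragments limit what any single weak member shows.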
